A study of Mus musculus with 6 samples.

Results

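Type 1 conventional dendritic cells (cDC1) of the mouse spleen were picked out of a CITE-seq data set, in which messenger RNA and antibody-tagged surface proteins are counted in the same cells. A barcode was counted as a cDC1 when it held 300 to 5000 genes and at most 10% mitochondrial transcripts, showed at least 2 of the 4 genes Xcr1, Clec9a, Cadm1 and Tlr3, had at least 5 molecules of the MHC class II gene H2-Ab1, and had no molecule of the B cell gene Cd79a. The cells were thus chosen by their RNA counts of these genes, and these values are given as a description only. The limits gave 76 cDC1 among 20161 cells that met the limits on genes and mitochondrial transcripts. The splenocytes came from C57BL/6 mice in 3 groups, namely young mice given saline (3 months old), aged mice given saline (20 months old) and aged mice given recombinant mouse PF4 (20 months old, 100 µl of a 5 µg/ml solution). Injections into the tail vein were given 8 times in 24 days, and the mice carried no transgene that the labels name. Cells of 5 mice were pooled per group, so each group is 1 RNA library with its matched antibody library and there is no replicate. The barcodes end in 1, 2 or 3, which separates the libraries, but no source used here says which ending belongs to which group. The libraries are therefore called library 1, library 2 and library 3, no group was compared, and no p-value was computed.

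cDC1 are the dendritic cells that take up dead cells and show their antigens on MHC class I to CD8 T cells, which is called cross-presentation. They depend on the transcription factors IRF8, BATF3 and ID2, find T cells through the chemokine receptor XCR1, and in mouse spleen many of them carry CD8a on their surface. Type 2 conventional dendritic cells (cDC2), the nearest relatives, carry SIRPa and CD11b and mostly address CD4 T cells.

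Libraries 1, 2 and 3 held 21, 27 and 28 cDC1, which was 0.50% (95% exact Clopper-Pearson interval 0.310 to 0.764), 0.360% (0.237 to 0.523) and 0.331% (0.220 to 0.479) of their cells. The intervals overlapped, and as for every interval given here they cover counting error only. A cDC1 had a median of 9676.5 RNA molecules, counted as unique molecular identifiers (UMIs), and 2798.5 genes, with a range of 1070 to 29129 UMIs. Over all barcodes the libraries held 24569928, 36599055 and 40949298 RNA UMIs. Of 29005 barcodes, 68 sequences occurred in more than 1 library, and 1 of them was that of a cDC1, while no sequence was shared by a pair of cDC1.

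The regulatory sequence in front of 4 genes is given here because 2 of them, Xcr1 and Clec9a, chose the cells, and the other 2, Apol7c and Cd8a, separated cDC1 from each other in the results that follow. Each stretch holds the 250 bases before the gene's RefSeq start on GRCm38.p6, 5′ to 3′ on the gene's strand, at chr9:123862030-123862279 (minus strand) for Xcr1, chr6:129408612-129408861 (plus) for Clec9a, chr15:77533316-77533565 (minus) for Apol7c and chr6:71373177-71373426 (plus) for Cd8a. Capitals mark matches, on either strand, to GAAANNGAAA (the sequence bound by IRF factors) or GGAANNGAAA (bound by IRF8 together with an ETS factor such as PU.1).
Xcr1 promoter: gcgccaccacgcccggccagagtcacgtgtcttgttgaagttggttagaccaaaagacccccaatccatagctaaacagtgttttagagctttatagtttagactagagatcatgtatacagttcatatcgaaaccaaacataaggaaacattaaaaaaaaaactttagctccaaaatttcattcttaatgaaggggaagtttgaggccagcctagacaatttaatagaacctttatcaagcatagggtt
Clec9a promoter: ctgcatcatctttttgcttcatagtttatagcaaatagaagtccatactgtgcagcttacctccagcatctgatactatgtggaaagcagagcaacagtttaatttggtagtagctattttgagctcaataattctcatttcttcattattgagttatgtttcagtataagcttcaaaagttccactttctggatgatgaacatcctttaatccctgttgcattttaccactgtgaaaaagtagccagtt
Apol7c promoter: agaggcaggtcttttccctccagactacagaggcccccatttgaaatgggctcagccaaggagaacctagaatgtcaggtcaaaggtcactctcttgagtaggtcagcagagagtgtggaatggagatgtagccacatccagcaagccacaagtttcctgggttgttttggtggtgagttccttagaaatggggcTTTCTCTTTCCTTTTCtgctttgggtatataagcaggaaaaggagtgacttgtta
Cd8a promoter: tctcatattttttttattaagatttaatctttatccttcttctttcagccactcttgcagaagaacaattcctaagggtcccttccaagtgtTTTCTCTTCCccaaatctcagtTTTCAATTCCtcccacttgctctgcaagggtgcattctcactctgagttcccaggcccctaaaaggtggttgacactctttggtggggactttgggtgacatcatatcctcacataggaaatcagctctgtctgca
Apol7c held 2 overlapping matches to GAAANNGAAA that began 55 and 49 bases before its start. Cd8a held 2 matches to GGAANNGAAA that began 158 and 136 bases before its start. The Xcr1 and Clec9a stretches held no match, which says only that these letters are not in this window. A window of 250 bases before to 50 bases after the start held GAAANNGAAA in 3.44% of 32851 mouse promoters, and in 7 of 102 promoters (6.86%) of the genes that were higher in cDC1 than in cDC2 and had a sequence to search. GGAANNGAAA was in 2.72% of all promoters and in 1 of these 102, and TGANTCA, the sequence bound by AP-1 and BATF factors, in 7.81% of all and 4 of these 102. Among the 3661 promoters of all genes tested between the classes, GAAANNGAAA was in 4.21%, GGAANNGAAA in 2.51% and TGANTCA in 4.94%. Among the 158 of the genes lower in cDC1, the shares were 5.06%, 4.43% and 10.1%. These matches describe letters and were not tied to binding.

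The name cDC1 means here that a barcode met the limits, and several such barcodes carried the genes of another cell type. A barcode was called mixed when it showed at least 5 genes, and more than 50% of the genes, of another type's marker list. This held for 18 of the 76, namely 5, 7 and 6 in the libraries. The macrophage list (C1qa, Vcam1, Hmox1 and others) was met by 9 barcodes, the monocyte list by 6, the plasmacytoid dendritic cell list by 4, the T cell list by 3, the erythroid list by 3 that also met the macrophage list, the cDC2 list by 2 and the neutrophil list by 1. The B cell and NK cell lists were met by none. The 4 barcodes with the plasmacytoid list held 22 to 47 UMIs of Siglech, a receptor of plasmacytoid cells, and the other 72 held none. The 18 mixed barcodes showed a median of 5 of 20 genes known for cDC1 and not used to choose the cells, against 13 in the other 58, and both groups reached high values (2 to 17 and 4 to 18). Those with the plasmacytoid list showed 2 to 6 of the 20, and those with the macrophage list 3 to 17 with a median of 5. Meeting the limits does not show that such barcodes are cDC1. Without the mixed barcodes the shares of kept cells in libraries 1, 2 and 3 were 0.381%, 0.266% and 0.260%. Of the cDC2 used for comparison, 32 of 65 met at least 1 of these lists and were left out where mixed cDC2 are removed. For them the lists included the cDC2 list itself, which 7 of the 65 met. The 32 is therefore not a count of cDC2 with another type's genes. Results are given for all 76 cells, and for the 58 where the mixed barcodes change them.

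**Figure D1:**
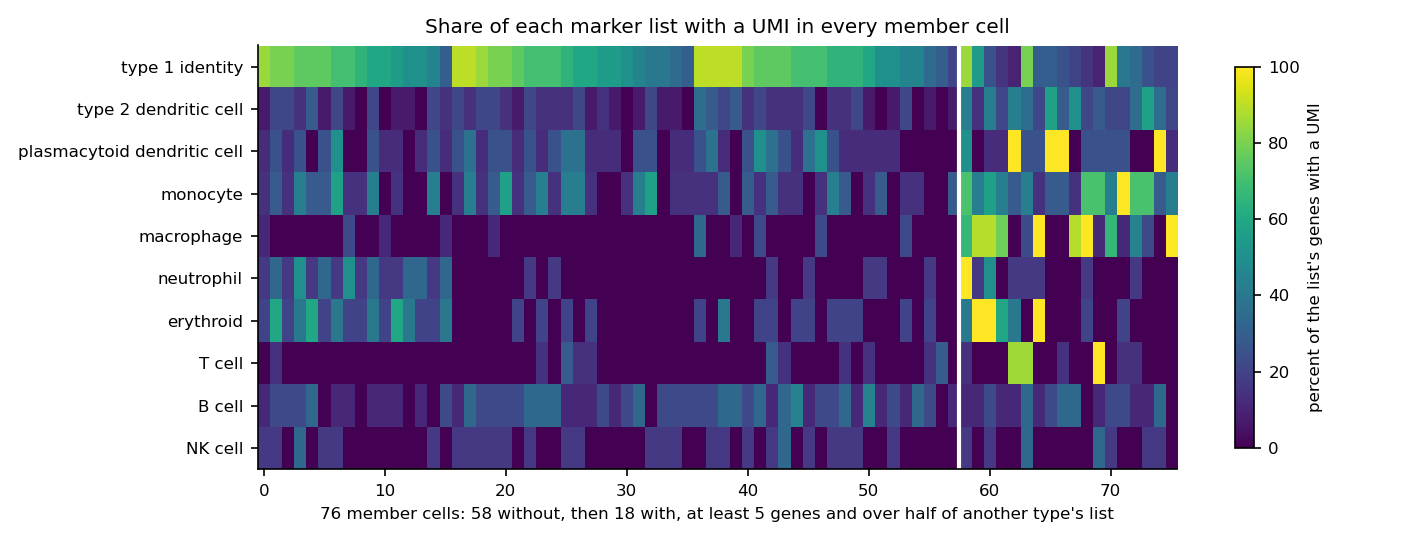
Each column is 1 of the 76 cDC1 and each row a marker list, coloured by the percent of the list's genes with at least 1 UMI. The 58 cells left of the white line, ordered by library, show the cDC1 list (top row) most fully and scattered genes of the others, with neutrophil and erythroid genes in most of the first 16, which are library 1, and the 18 mixed cells on the right also show most of the macrophage, monocyte, plasmacytoid or other list.

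The heat map of marker lists by cell shows that the mixed barcodes differ from each other in which second list they hold. Scrublet, a doublet caller run as an alternative, left 75 of the 76 cells. Beyond that, how many mixed barcodes are 2 cells in 1 droplet was not tested. Their part in a result is given by the values without them. A library-specific case was 1 barcode of library 1 with the neutrophil list, which held 2577 UMIs of S100a8, a neutrophil protein, and with it 99.2% of all S100a8 UMIs of the 76 cells.

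The values of the cells just inside and just outside the limits are given once, as a description. Of the 76, 29 showed 2 of the 4 marker genes, 23 showed 3 and 24 showed all 4, and 70 further barcodes that met the other limits showed only 1. With 1, 2, 3 and 4 markers, Ppt1, which encodes a lysosomal thioesterase and is high in cDC1, stood at 236, 586, 1656 and 2062 CPM, where CPM is a gene's UMIs in a set of cells per 1000000 RNA UMIs of that set. The median XCR1 antibody count rose along the same steps from 12 to 25, 40 and 85, and that of CD8a from 36.5 to 88, 164 and 318.5. Naaa, at 125, 291, 1113 and 1074 CPM, and the CD24 antibody, at 179.5, 322, 683 and 510.5, did not rise at the last step. The cells with 4 markers were deeper, with a median of 13477.5 UMIs against 6911.5, 7348 and 6959. Mixed barcodes made up 46 of the 70 with 1 marker, 14 of the 29 with 2, and 2 in each of the other steps. On the H2-Ab1 limit, the lowest cDC1 had 6 UMIs and the 8 barcodes that it removed had at most 3. The limit on Cd79a removed 46 barcodes, of which 24 had exactly 1 UMI of it. Those 24 had Ppt1 at 1466 CPM and Naaa at 790 CPM. The other 22 had Ppt1 at 576 CPM and the B cell gene Ms4a1 at 376 CPM, against 34.9 CPM of Ms4a1 in the 24. For comparison, 19.3% of 3270 T cells without other B cell genes also held exactly 1 UMI of Cd79a.

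The RNA of the cDC1 was set beside that of 65 cDC2 (18, 18 and 29 cells), which were kept barcodes with at least 5 H2-Ab1 UMIs, no Cd79a, a UMI of Flt3 and at least 2 of Sirpa, Clec4a4, Cd209a, Clec10a and Esam, and with at most 1 cDC1 marker. Since RNA chose both classes, what follows describes the chosen cells and is no test. A gene was called higher or lower when its CPM, with 0.5 UMIs added, differed at least 2-fold in the same direction in every library. Of 3568 genes with a mean of at least 50 CPM in either class, 101 were higher in cDC1, which was 2.83%, and 155 were lower, which was 4.34%. Without the mixed barcodes in either class, 109 of 3632 were higher (3.00%) and 233 lower (6.42%). The cDC2 left out there included the 7 that met the cDC2 list itself. The median log2 ratio over all 3568 genes was -0.18.

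The marker genes that formed the rule were higher by construction. Xcr1 (chr9:123852315-123862029, minus strand, mm10), the receptor for the T cell chemokine XCL1, stood at 324, 417 and 472 CPM in libraries 1, 2 and 3 and had no UMI in cDC2. Clec9a, a receptor for the actin of dead cells, stood at 231, 277 and 420 CPM against 27.6, 19.3 and 83.0 CPM in cDC2. Cadm1, an adhesion molecule, stood at 227, 260 and 395 CPM. Tlr3, the sensor of double-stranded RNA, stood at 160, 177 and 255 CPM. All 4 were lowest in library 1 and highest in library 3. Their sum stood at 941.8, 1130.6 and 1542.6 CPM in the 76 cells. Without the mixed barcodes it was 1192.5, 1368.2 and 1734.6 CPM, in the same order. Xcr1 was seen in 55 of the 76 cells, Clec9a in 67, Cadm1 in 55 and Tlr3 in 46.

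Genes known for cDC1 that the rule did not use followed them. Of 20 such genes, 17 passed the limit on low values, and 16 of them were higher, against 2.83% of all genes. None was lower, and the median log2 ratio was 3.58. The list was chosen with earlier results of these data known. Irf8 (chr8:120736358-120756694, plus strand), the transcription factor without which cDC1 do not form, stood at 1768, 1960 and 2078 CPM against 303, 135 and 609 CPM in cDC2. All 3 values lay above all 3 of cDC2, and the pooled ratio was 4.97 (95% interval 4.32 to 5.73). Id2, a repressor of E proteins that cDC1 need, was even across libraries at 860, 854 and 868 CPM, against 325, 193 and 71.1 CPM. Ppt1 stood at 1176, 1609 and 1788 CPM against 110, 109 and 71.1 CPM, a pooled ratio of 16.4 (12.5 to 21.9). Naaa, which breaks down fatty acid amides in lysosomes, stood at 715, 941 and 924 CPM against 55.1, 116 and 55.3 CPM. Rab7b, a GTPase of late endosomes, stood at 216, 248 and 283 CPM and had no UMI in cDC2, so it was at least 49.1-fold higher when 3 counts over the cDC2 class are taken as the floor. Batf3, the partner of IRF8 in cDC1, differed less than these. It stood at 279, 182 and 241 CPM against 138, 70.8 and 107 CPM, and without the mixed barcodes in either class it no longer differed 2-fold in every library. Wdfy4, which is needed for cross-presentation of cell-bound antigen, had a pooled ratio of 3.25 (2.67 to 3.98) but stayed under 2-fold in library 1, at 484 against 265 CPM.

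The share of cells with a UMI depends on depth, so each cell was also thinned to 2000 UMIs, which left out 4 cDC1 and 1798 of 10220 B cells. Irf8 was then seen in 88.9% of cDC1 (93.4% before thinning), 27.7% of cDC2 and 51.2% of B cells, which use it too. Ppt1 was seen in 80.6% of cDC1 (98.7% before thinning), 15.4% of cDC2 and 11.2% of B cells. Naaa was seen in 58.3% of cDC1 (78.9% before thinning) and 4.12% of B cells. Batf3 was seen in 30.6% of cDC1 (64.5% before thinning), 18.5% of cDC2 and 0.344% of B cells. The median depth before thinning was 9676.5 UMIs in cDC1, 9216 in cDC2 and 3505 in B cells.

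**Figure D2:**
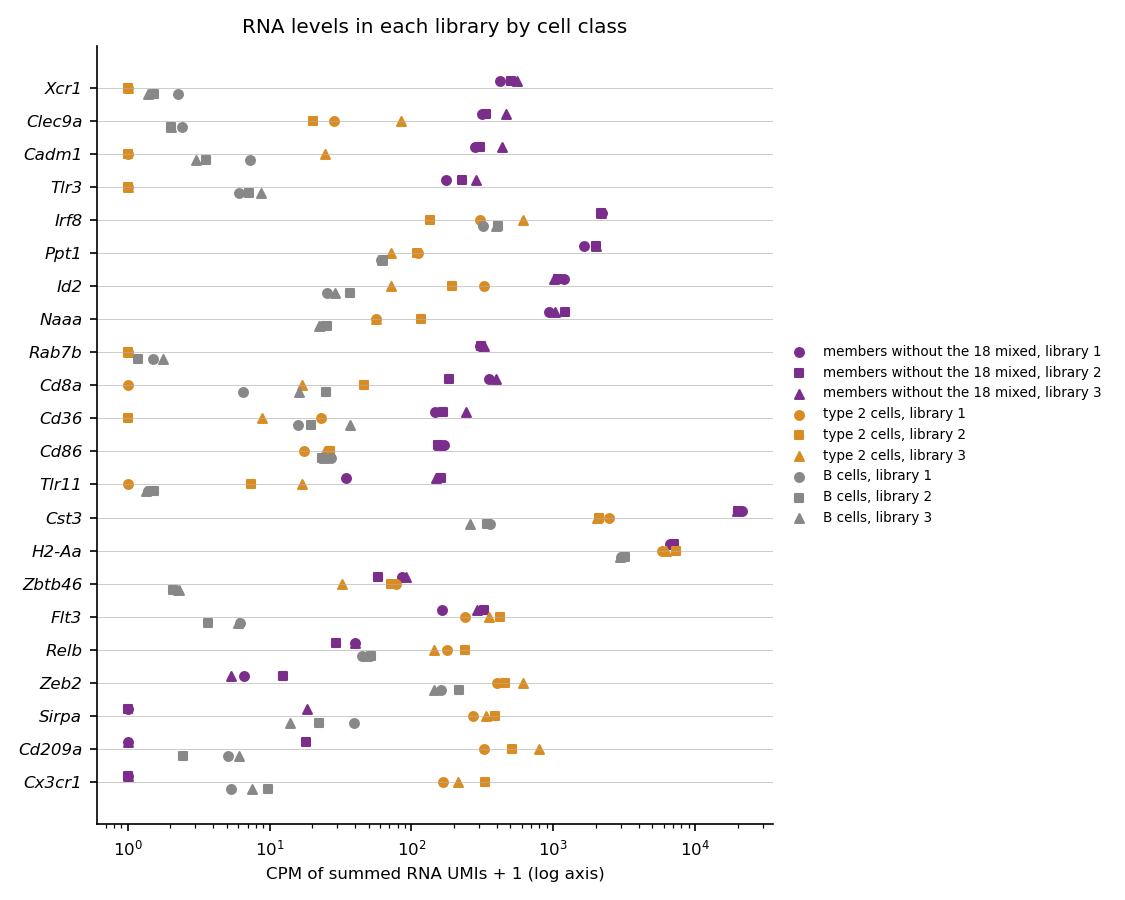
RNA level of 22 genes as CPM plus 1 on a log axis, with 1 symbol per library, in the 58 cDC1 that were not mixed, the 65 cDC2 and the 10220 B cells. Mixed barcodes were left out of the cDC1 only, and the 65 cDC2 include the 32 that met a marker list. For the 14 upper genes, from Xcr1 to Cst3, every cDC1 symbol (members) lies above every cDC2 symbol (type 2 cells), H2-Aa, Zbtb46 and Flt3 overlap or lie close, and the last 5 are higher in cDC2.

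The plot of RNA levels by class also shows the cDC1 values without the mixed barcodes, which lie close to each other across libraries for Irf8 (2194, 2166 and 2156 CPM) and Rab7b (304, 308 and 326 CPM). By size, 12 genes led the difference from cDC2 in every library. They were Xcr1, Apol7c, Rab7b, Tlr3, A530099J19Rik, Gcsam, Snx22, AC163354.1, Cadm1, Ifi205, Endod1 and Pianp. Gcsam, a signalling adaptor first known from germinal centre B cells, stood at 119, 165 and 133 CPM and Snx22, a sorting nexin, at 85.6, 99 and 122 CPM, both without a UMI in cDC2. Ifi205, an interferon-inducible gene of the p200 family, stood at 436, 417 and 448 CPM against 27.6, 6.44 and 15.8 CPM. Cst3, an inhibitor of cysteine proteases that is used as a dendritic cell marker, stood at 15665, 15445 and 16881 CPM in cDC1 and was 7.36-fold (6.95 to 7.80) higher than in cDC2.

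Genes of the cDC2 list were lower. The counts that follow stand beside 2.83% of all genes higher and 4.34% lower, and 6.42% lower without the mixed barcodes in either class. Of the 14 genes on the cDC2 list, 8 were tested, 6 were lower and none was higher, with a median log2 ratio of -2.08, and the list shares genes with the choice of the cDC2. Of 5 tested genes of the monocyte list, 1, Ms4a6c, was lower, and 3 without the mixed barcodes in either class, while 14 of the 65 cDC2 met that list. S100a4, a calcium-binding protein, stood at 63.3, 45.4 and 49.0 CPM in cDC1 against 1945, 2471 and 1585 CPM in cDC2. Cx3cr1, the fractalkine receptor, was seen in 2 of the 76 cells and in none of the 58. It stood at 165, 328 and 213 CPM in all 65 cDC2, mixed ones included. Zeb2, a transcription factor that opposes the cDC1 fate, stood at 41.0, 132 and 122 CPM, but at 5.63, 11.4 and 4.35 CPM in the 58, so that it was seen in only 4 of them. In all 65 cDC2, mixed ones included, Zeb2 stood at 402, 457 and 617 CPM. Relb, a subunit of NF-kB, stood at 29.8, 24.8 and 42.0 CPM against 176, 238 and 142 CPM. Of 14 transcription factors of dendritic cells that were tested, Irf8, Batf3 and Id2 were higher and Zeb2, Relb, Klf4, Runx3 and Bcl11a lower. Batf3 lost this call without the mixed barcodes in either class.

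Of the antigen presentation genes, 2 were called between the classes. Of 17 tested genes for MHC class I and cross-presentation, 1 was higher, against 2.83% of all genes, and none was lower. That gene was Psmb9, a subunit of the immunoproteasome that cuts peptides for MHC class I, at 704, 520 and 539 CPM against 298, 212 and 229 CPM. Of 12 tested MHC class II genes, none was higher and 1, H2-DMb2, was lower, against 4.34% of all genes, so neither list is read as differing from all genes. Cd74, the invariant chain of MHC class II, stood at 13524, 14930 and 17620 CPM with a pooled ratio of 1.02 (0.990 to 1.05).

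The next lists hold genes that meet T cells or sense microbes, and their counts stand beside 2.83% of all genes higher and 4.34% lower. Cd86, the costimulatory ligand of CD28, was even at 134, 132 and 136 CPM against 16.5, 25.7 and 23.7 CPM, a pooled ratio of 6.09 (3.42 to 11.8). Btla, an inhibitory receptor, was the other of 4 tested costimulation and checkpoint genes that was higher, at 127, 186 and 220 CPM against 22, 25.7 and 55.3 CPM. Of 8 tested pattern recognition genes, Tlr11 and Tlr12 were higher, and both are known as sensors of profilin from Toxoplasma. Tlr9, a sensor of bacterial DNA, had no UMI in the 76 cells. Of 6 tested genes for uptake of dead cells, Cd36, a scavenger receptor, was higher at 138, 128 and 210 CPM against 22, 0 and 7.90 CPM. None of the 6 tested cytokines and chemokines was called either way. Il12b, a subunit of interleukin 12, was seen in 1 cell and Ccr7, the receptor that leads mature dendritic cells into T cell zones, in 4.

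Of 10 receptors and partners of PF4, 4 passed the limit on low values. None of the 4 was higher and 1, Itgam, was lower, against 2.83% and 4.34% of all genes. Itgam is also on the cDC2 list, so this count is not read as a result about partners of PF4. Cxcr3, the chemokine receptor to which PF4 binds, stood at 26.1, 41.3 and 28 CPM in cDC1, with intervals that overlapped. It was seen in 24 of 76 cells (31.6%, 21.4 to 43.3), with never more than 2 UMIs in a cell. The share was 4.62% (0.962 to 12.9) in cDC2, whose median depth was 9216 against 9676.5 UMIs, and 2.62% in the shallower B cells. After thinning to 2000 UMIs it was 2 of 72 cDC1 (2.78%, 0.338 to 9.68), 2 of 65 cDC2 (3.08%), 1.37% of B cells and 12.4% of T cells, and after thinning to 1000 UMIs 3 of 76 cDC1 (3.95%, 0.822 to 11.1), 0 of 65 cDC2 and 0.59% (0.448 to 0.762) of B cells. The thinned shares of cDC1 rest on 2 and 3 cells, so no order was read from them. Lrp1, an endocytic receptor, was seen in 13 cells, 11 of them mixed. Ccr1 was seen in 1 cell and Sdc1 in none of the 76. With 3 counts taken as the floor, this allows a share of 3.95% of cells with a UMI at this depth. That floor is not the upper end of an exact interval.

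The antibody counts were not used to choose the cells. Of 34 antibodies, 9 had a higher median in cDC1 than in cDC2 in every library and 4 a lower one. The CD8a antibody had medians of 157, 137 and 187.5 counts per cDC1, against 23, 25.5 and 33 in cDC2 and 20, 22 and 27 in B cells. XCR1 had medians of 61, 25 and 56 against 8, 10 and 12 in cDC2. Both were far above cDC2 in every library, and XCR1 was lowest in library 2. CD24, a glycoprotein of cDC1 and B cells, had medians of 407, 442 and 470.5 against 140.5, 138.5 and 197 in cDC2. The other higher antibodies were CD38, CD86, B220, CCR2, CD106 and TCR beta, and the last 4 of these differed by at most 1.21-fold. In the 58 these 4 were no longer higher in every library, with ratios in library 1 of 1 for B220, 0.973 for CCR2, 0.902 for CD106 and 0.948 for TCR beta. SIRPa was lower, with 25, 23 and 30.5 against 50, 51 and 44, and so was CD11b, with 7, 8 and 10 against 64, 33.5 and 44. CD45 and PD-L1 were the other 2 that were lower. CD11c, an integrin of dendritic cells, had medians of 190, 119 and 199.5 and crossed with cDC2 (159.5, 167 and 97).

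**Figure D3:**
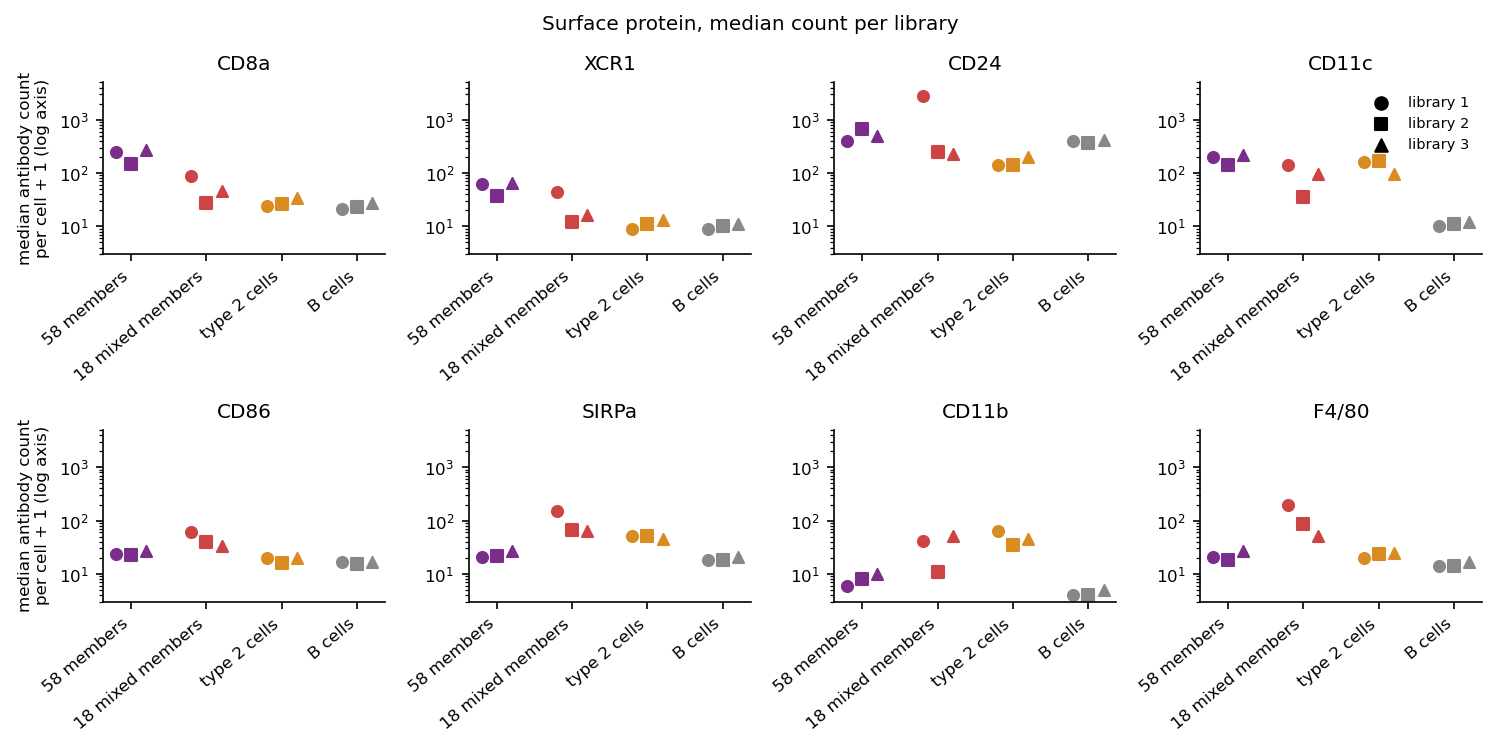
Median antibody count per cell plus 1 (log axis) in each library for the 58 cDC1, 18 mixed barcodes, all 65 cDC2 and the B cells. Within each library CD8a and XCR1 are highest in the 58 (members), SIRPa and CD11b are lower there than in cDC2 (type 2 cells), and F4/80 is highest in the mixed cells.

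The plot of surface protein medians sets the mixed cells apart from the rest. Over the libraries together, the 18 mixed cells had a median of 53 for CD8a and 17 for XCR1, against 202.5 and 55.5 in the 58. Their SIRPa median was 67 against 22, and that of the macrophage protein F4/80 was 84 against 20. Of the 58, 43 had more CD8a antibody than the 95th percentile of the B cells in their library, 43 had more XCR1 and 56 had more CD11c. Across the 58 cells, which share 3 libraries, the share of XCR1 in a cell's antibody counts followed its Xcr1 CPM (Spearman rho 0.58), and that of CD8a its Cd8a CPM (rho 0.56). For CD86 rho was 0.01.

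The 58 cells were then split by CD8a antibody at the 95th percentile of the B cells of their library, 55, 100 and 75.5 counts. The split was chosen after the data had been seen, and it cuts a range rather than naming a type. It gave 43 CD8a-high cells (13, 12 and 18) and 15 CD8a-low cells (3, 8 and 4), with 7 cells within 1.5-fold of the limit. CD8a-low cells were deeper (median 11190 against 7454 UMIs) and showed a median of 13 of the 20 cDC1 genes against 14, a count that rises with depth. Per UMI, these 20 genes summed to less in the CD8a-low cells in every library. The sums were 7060, 9176 and 8486 CPM against 9462, 10382 and 9726 CPM, and they include Cd8a. The antibody to TCR beta, a T cell protein, had a median of 30 in the CD8a-high and 34 in the CD8a-low cells. The CD8a-low cells had less XCR1 (10, 16 and 20.5 against 65, 53 and 79.5) and less CD11c (62, 131.5 and 96 against 202, 172 and 244.5). They had more CD24, with 952, 949.5 and 687 against 394, 368.5 and 490, more CD44 with 457, 401 and 348.5 against 206, 177.5 and 301, and more CD11b with 40, 21 and 21.5 against 3, 4 and 8.5. As a share of a cell's antibody counts, CD8a and CD24 ran opposite ways over the 58 cells (rho -0.56), while CD8a and XCR1 ran together (rho 0.70). These shares come from the same total, which the antibodies divide among them.

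Of 1758 genes tested between the CD8a-high and CD8a-low cells, 23 were at least 2-fold higher in the CD8a-high cells in every library (1.31%) and 52 lower (2.96%). Apol7c (chr15:77524852-77533316, minus strand), an apolipoprotein L gene known from cross-presenting dendritic cells, whose promoter with its pair of IRF sequences is printed above, stood at 620, 775 and 1333 CPM in CD8a-high cells. In CD8a-low cells it stood at 0, 10.2 and 0 CPM, which is 1 UMI in 15 cells. Cd8a itself, which encodes the protein used for the split, stood at 495, 349 and 455 CPM against 0, 51.0 and 82.1 CPM. Serpinb6b, a protease inhibitor, stood at 220, 142 and 295 CPM and had no UMI in the CD8a-low cells, so it was at least 14.9-fold higher against a floor of 3 counts over those cells. Dnase1l3, a secreted nuclease, stood at 762, 659 and 1189 CPM against 0, 184 and 82.1 CPM. Cd81, a tetraspanin, stood at 361, 310 and 388 CPM against 0, 81.7 and 0 CPM. Cxcl16, a chemokine for activated T cells, and Cd83, a maturation marker, were also higher, by 7.12-fold (2.29 to 35.8) and 6.66-fold (2.13 to 33.5) over the libraries together. Xcr1 and Cadm1, both of the rule, were higher by 3.00-fold (2.13 to 4.32) and 6.27-fold (3.65 to 11.7). Apoe had no UMI in the CD8a-low cells and 204, 284 and 140 CPM in the CD8a-high cells, but 595, 329 and 165 CPM in B cells.

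Of the 52 genes that were higher in the CD8a-low cells, those chosen by size are described next. Vim, an intermediate filament protein, stood at 1785, 1858 and 1752 CPM in CD8a-low cells and at 78.5, 155 and 191 CPM in CD8a-high cells, a pooled ratio of 12.3 (9.28 to 16.5). Anxa2 and S100a10, which bind each other at membranes, were 13.9-fold (8.32 to 24.8) and 14.5-fold (7.65 to 30.3) higher. Ahnak, a large scaffold protein that binds the same pair, was 15.1-fold (10.4 to 22.7) higher. Ccr2, the receptor with which cells leave bone marrow, stood at 317, 419 and 739 CPM against 55.0, 38.7 and 15.5 CPM. The CCR2 antibody did not follow in every library, with medians of 40, 45 and 32.5 in CD8a-low and 35, 42.5 and 46 in CD8a-high cells. Cdk6, a kinase of cell cycle entry, was 9.04-fold (3.32 to 30.7) higher, with 59.5, 122 and 164 CPM against 7.85, 12.9 and 15.5 CPM. Lgals1, Fcer1g, Ms4a6c, Ifitm3, Mndal, S100a4, Irf7, Samd9l and Cd300a were higher as well. Several of these, such as Fcer1g, Ms4a6c and Ifitm3, are also genes of monocytes and cDC2. Of 2 tested genes of the cDC2 list, 1, Cd300a, was higher in the CD8a-low cells, against 2.96% of all genes. Of its other genes, Sirpa had no UMI in the CD8a-low cells and Cd209a had 0, 30.6 and 0 CPM. Barcodes that met the cDC2, monocyte or macrophage list had been left out of the 58. The median SIRPa antibody count of CD8a-high over CD8a-low cells was 0.68, 0.773 and 1.17 in libraries 1, 2 and 3. The summed monocyte list of 7 genes, which includes Ccr2 and Ms4a6c, stood at 1071, 1102 and 2026 CPM in CD8a-low and 322, 245 and 176 CPM in CD8a-high cells. The summed cDC2 list stood at 317, 408 and 328 CPM in CD8a-low and 212, 439 and 362 CPM in CD8a-high cells, and the summed macrophage list at 0 CPM in every library of the CD8a-low cells. The part of the monocyte genes and of depth in the result was not tested.

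Of 14 tested genes of the cDC1 list, 1 was higher in the CD8a-high cells, against 1.31% of all genes, and none was lower, against 2.96%. The gene was Cd8a itself. Irf8 stood at 2340, 2014 and 2114 CPM in CD8a-high and 1824, 2286 and 2382 CPM in CD8a-low cells, with a pooled ratio of 0.99 (0.88 to 1.12). Tlr3 had a ratio of 1.11 (0.76 to 1.65), Clec9a of 1.82 (1.30 to 2.58), Batf3 of 0.70 (0.51 to 0.97) and Id2 of 0.69 (0.59 to 0.81), and none of these was 2-fold in every library. Rab7b stood at 330, 400 and 300 CPM against 238, 235 and 465 CPM.

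**Figure D4:**
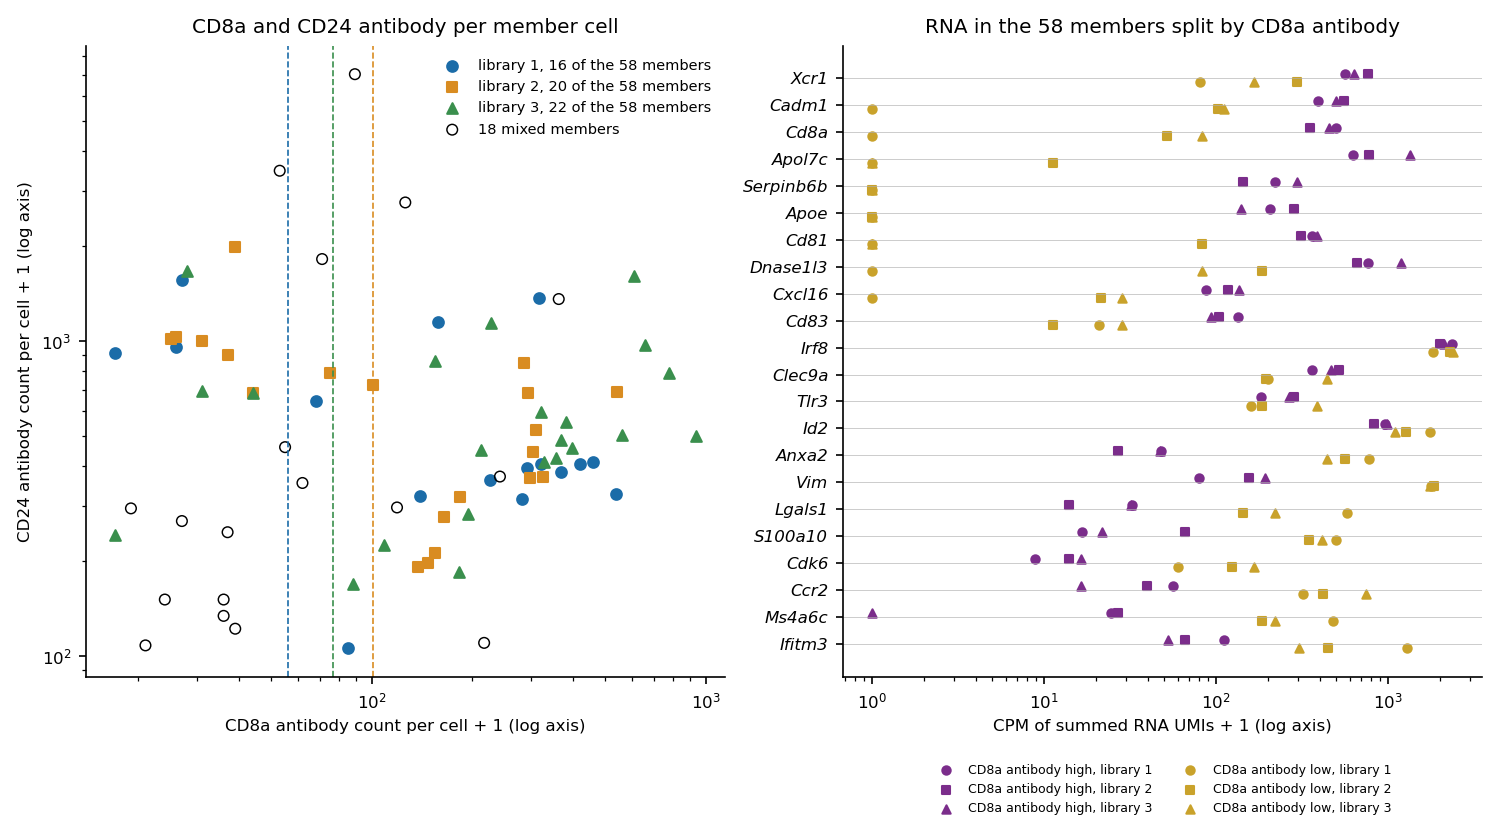
Left, CD8a against CD24 antibody count per cell plus 1 on log axes for the 58 cDC1 by library and the 18 mixed cells (open), with dashed lines at each library's CD8a limit. Right, CPM plus 1 of 22 genes per library in the 43 CD8a-high and 15 CD8a-low cells, where Apol7c and Vim lie far apart in opposite directions and Irf8 and Tlr3 overlap.

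The scatter of CD8a against CD24 shows that most CD8a-low cells lie at the upper end of CD24, with a lowest count of 241 against 105 in the CD8a-high cells. The groups overlapped in CD24. Cells with at least 5 of 15 cell cycle genes numbered 4 in each group, and the CD8a-low cells were deeper. Per UMI, the summed cell cycle list stood at 1272, 1227 and 429 CPM in CD8a-high and 1031, 1439 and 438 CPM in CD8a-low cells, which overlapped.

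Between libraries, the cDC1 were first compared with all 76 cells. Of 1411 genes with a mean of at least 100 CPM, 179 had a highest library at least 2-fold above the lowest, which was 12.7%, and without the mixed barcodes 160 of 1412 did (11.3%). Mixed barcodes led the largest of these differences. S100a8 stood at 9653, 4.13 and 10.5 CPM, S100a9 at 9846, 12.4 and 7.0 CPM and Lcn2 at 893, 0 and 0 CPM, and 1 mixed cell held 99.2%, 99% and 99.2% of their UMIs. In libraries 1, 2 and 3 S100a8 stood at 78.8, 0 and 13.0 CPM in the 58 cells and at 1469, 54.1 and 117 CPM in B cells. The source of these UMIs was not tested. Complement C3 had no UMI in the 58. Ccl5, a T cell chemokine, stood at 363 CPM in library 2 against 48.4 and 10.5 CPM in libraries 1 and 3, with 59.6% of its UMIs in 1 cell.

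In the 58, Apol7c, Cxcl9 and Tlr11 differed at least 2-fold between libraries and were seen in 33, 27 and 36 cells. Apol7c stood at 444, 348 and 1122 CPM in libraries 1, 2 and 3, and the interval of library 3 lay above the others. It was seen in 7 of 16, 9 of 20 and 17 of 22 cells. Cxcl9, an interferon-gamma-induced chemokine that attracts CXCR3-bearing T cells, stood at 56.3, 68.4 and 383 CPM and was seen in 5 of 16, 5 of 20 and 17 of 22 cells. Both were most frequent in library 3, and 22 of the 58 cells showed both, 5 only Cxcl9, 11 only Apol7c and 20 neither. Tlr11 was low in library 1, at 33.8 CPM against 160 and 148 CPM, in 6 of 16, 13 of 20 and 17 of 22 cells. Itgae, which encodes CD103, and Cd207 lay under the minimum of 100 CPM and were not counted. Itgae stood at 95.6, 51.3 and 26.1 CPM, in 8 of 16, 4 of 20 and 4 of 22 cells. Cd207, which encodes langerin and is known in a subset of CD8a-bearing spleen dendritic cells, was seen in 0 of 16, 3 of 20 and 5 of 22 cells, and all 8 of them also showed Apol7c. With 1 library per group and no group known, these differences cannot be told apart from differences between libraries of any other kind.

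For other genes a single cell held a large part of the UMIs. Hist1h1b, a replication-linked histone, stood at 444, 62.7 and 26.1 CPM with 75.0% of its UMIs in 1 cell. For Nabp1 (315, 62.7 and 104 CPM) and Traf1 (56.3, 79.8 and 265 CPM) a single cell held 49.5% and 43.5%. Ifitm3, an antiviral membrane protein, stood at 444, 279 and 91.3 CPM (79, 49 and 21 UMIs in 28 of the 58 cells) with 34.9% in 1 cell. Stmn1, a tubulin-binding protein of dividing cells, stood at 214, 120 and 30.4 CPM (38, 21 and 7 UMIs in 9 cells) with 33.3% in 1 cell. Irf8, Cst3 and Cd86 differed by at most 1.09-fold between libraries in the 58.

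**Figure D5:**
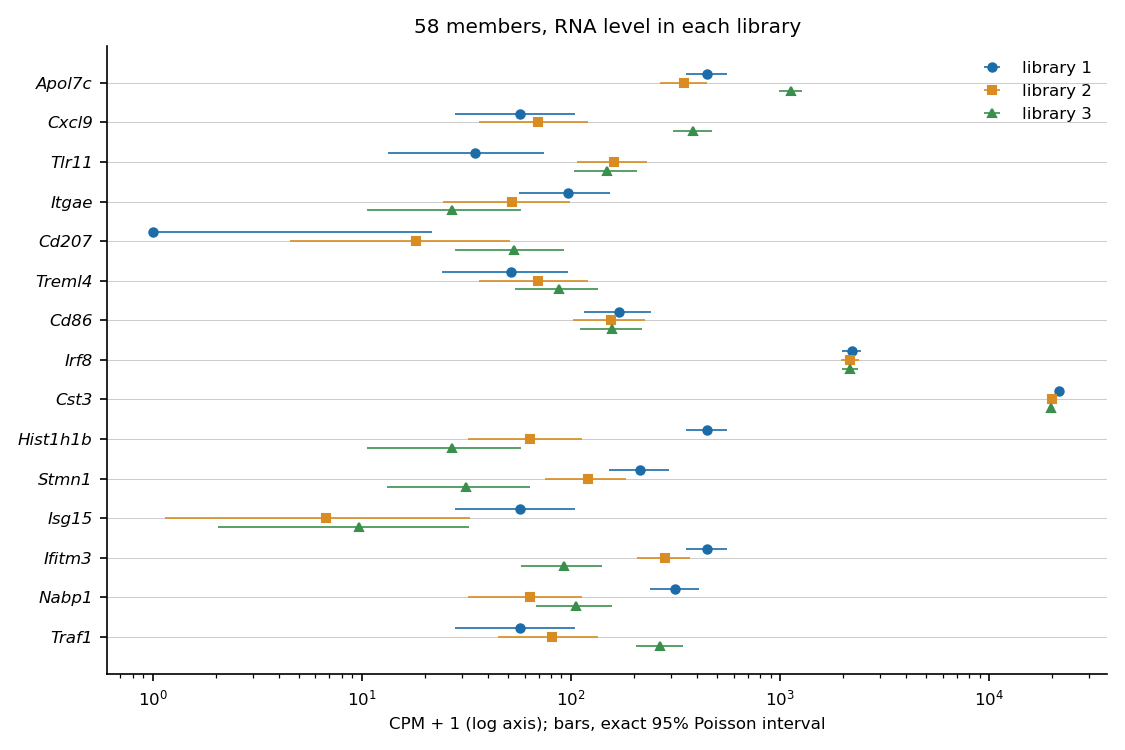
CPM plus 1 on a log axis of 15 genes in each library for the 58 cDC1, with exact 95% Poisson intervals that cover counting error only. Apol7c and Cxcl9 are highest in library 3, Tlr11 is lowest in library 1, and Cd86, Irf8 and Cst3 lie together.

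The plot of levels by library sets these patterns beside genes that stayed level. The number of CD8a-low cells differs between libraries (3 of 16, 8 of 20 and 4 of 22). Within the CD8a-high cells Apol7c stood at 620, 775 and 1333 CPM and Cxcl9 at 78.5, 77.5 and 439 CPM. The part of the CD8a-low cells in the differences between libraries was not tested.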

How the data were processed

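RNA and 34 surface antibodies of splenocytes were measured with a droplet kit for 3' ends. The authors deposited 1 matrix of raw UMI counts, whole numbers for 31053 genes and the antibodies in 29005 barcodes. Its header gives Cell Ranger 5.0.1, while Cell Ranger, Seurat and the build mm10 are listed in the processing notes of the submitters. No source used here says whether depth was equalised between libraries, a step that removes reads but does not shift the ratio of genes inside a library. The number of unused columns was 0. Cells, lists and comparisons were chosen with earlier results of these data known. The mixed barcodes, the split by CD8a antibody, and their alternatives and named genes were chosen after seeing these data.

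RNA UMIs were summed per class and library and scaled to CPM, with exact Poisson intervals for levels and exact binomial intervals for shares and for ratios of pooled counts, all at 95%. Ratios used for calls had 0.5 UMIs added. No test was run, since each library is 1 pool of 5 mice. B cells were kept barcodes with at least 3 Cd79a UMIs and a Ms4a1 UMI, and T cells those with at least 2 of Cd3e, Cd3d, Cd3g and Trac and no Cd79a. Genes were named as rule markers, as the up to 8 highest members of each list, as the 12 most different from cDC2 in each direction, as the 12 that spread most between libraries, and as the 12 most different in each direction between CD8a-high and CD8a-low cells. No doublet caller was applied beyond the gene limit, and Scrublet, run per library as an alternative, left 75 of the 76 cells. The calling step was run on simulated counts with counting error only and no spread between cells or libraries. That run therefore does not measure its errors on these data. Gene positions are those of GENCODE vM21 (mm10), promoters those of RefSeq on GRCm38.p6, with 80 of 101 higher genes matched by symbol. Thinning used seed 1. Python 3.11.15 with numpy 2.4.6, scipy 1.17.1, pandas 2.3.3, scanpy 1.11.5 and matplotlib 3.10.9 was used.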

Additional observations from a re-analysis of the deposited data

How the results depend on the processing

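The share of kept cells that were cDC1, 0.377% over the libraries, became 0.233% with at least 3 of 4 markers, 0.605% with no limit on Cd79a, 0.490% at most 5% mitochondrial UMIs, 0.279% with no limit on genes or mitochondrial UMIs, 0.179% without cells that hold a T or B cell gene and 0.288% without the mixed barcodes. It ranged from 0.345% to 0.410% when each library was left out. Genes higher than in cDC2 numbered 101, and 65 with 2 times the CPM minimum, 222 with no minimum and 138 to 146 with a library left out. Genes lower numbered 155, and 233 with at least 3 of 4 markers, 91 with 2 times the minimum, 382 with no minimum, 246 with mixed barcodes out of the cDC1, 233 with them out of both classes and 226 to 267 with a library left out. Fewer libraries make the requirement of every library easier to meet. Genes that spread between libraries numbered 179, and 98 with no limit on Cd79a, 532 without cells that hold a T or B cell gene, 272 by the mean over cells, 300 with CPM without mitochondrial and ribosomal protein genes, 40 with 2 times the minimum, 6619 with no minimum and 61 to 115 with a library left out. Antibodies lower than in cDC2 were 4 by medians, 10 by the share of antibody counts and 5 to 7 with a library left out. Those higher were 9, 6 with the mixed barcodes out of the cDC1, and 10 to 17 with a library left out. The 6 included c-Kit, which was not among the 9, with ratios of 1.6, 1.30 and 1.61 in libraries 1, 2 and 3. Thinning to 1000 UMIs gave 60.5% for Ppt1 and 73.7% for Irf8, and no thinning gave 98.7% for Ppt1, 78.9% for Naaa and 64.5% for Batf3. Between CD8a-high and CD8a-low cells, 23 genes were higher and 52 lower, which became 12 and 29 with all cDC1 and 11 and 28 with 2 times the minimum, 13 higher with a prior of 2 counts and 91 lower by the mean over cells, and 33 to 52 higher and 110 to 127 lower with a library left out. Apart from the steps that change the number of genes, cells or libraries, the cause was not tested. Of 1202 repeats of calls for named genes and antibodies, 1161 kept the call, 41 lost it and 0 changed direction. Repeats in which a gene fell under the CPM minimum were not counted. Leaving out a library cannot undo a higher or lower call, and the rule markers were among the named genes. These numbers are therefore no measure of how stable the calls are. No paired analysis was possible because no test was run and no library has a replicate.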

Other observations

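Of 8 tested genes of the maturation list, Cd86 and Apol7c were higher than in cDC2 and Relb was lower, against 2.83% and 4.34% of all genes. Others of the list were seen in few cells. Of the 58 cells without another type's list, 3 showed Ccr7, 1 in each library, and 1 of these also showed Fscn1, the actin-bundling protein of mature dendritic cells. Il12b was seen in 1 cell, with 4 UMIs. Cd40, the receptor for help from CD4 T cells, was seen in 11 of the 76 cells and Cd80, a second ligand of CD28, in 11.

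The receptors with which macrophages bind dead cells were held mostly by the mixed barcodes. Axl was seen in 12 of the 76 cells and in 1 of the 58, and Mertk in 7 and in 1. Havcr2, which encodes TIM-3 and binds lipids of dead cells, was seen in 57 of the 76 and in 49 of the 58, at 270, 319 and 413 CPM in libraries 1, 2 and 3. It was also seen in 29 of the 65 cDC2 (44.6%). Of 8 tested genes of the interferon response none was higher than in cDC2 and 1 was lower, and of 6 tested cell cycle genes none was called, which is about what the 2.83% and 4.34% of all genes give. Isg15, an interferon-stimulated gene, stood at 149, 16.5 and 10.5 CPM in the 76 cells and at 56.3, 5.70 and 8.70 CPM in the 58.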
